A study of Mus musculus with 2 samples.

Results

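Pyruvate dehydrogenase, the kinases that switch it off and the genes of lactate handling were examined in heart RNA of csMed1-/- and Med1fl/fl mice. The genes were taken by symbol and are Pdha1, Pdhb, Dlat, Dld, Pdk1, Pdk2, Pdk4, Ldha, Ldhb and Slc16a1, that is 10 of the 22882 symbols in the deposited values. Each of the 10 stood on a single row. Med1 encodes a subunit of Mediator, the complex that links transcription factors to RNA polymerase II. The csMed1-/- mice carry loxP-flanked Med1 alleles and a Cre transgene under the α-myosin heavy chain promoter, which is active in cardiomyocytes, so Med1 is meant to be lost in cardiomyocytes and kept in the other cells of the heart. The Med1fl/fl mice carry the loxP-flanked alleles and served as control. All mice were on the C57BL6/J background, of mixed sex and 23 days old, and received no treatment. RNA of 5 hearts was pooled per genotype, and each pool gave 1 library.

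Pyruvate dehydrogenase is the mitochondrial enzyme complex that turns pyruvate into acetyl-CoA and so connects glycolysis with the tricarboxylic acid cycle. Pyruvate dehydrogenase kinases phosphorylate its E1 component and inactivate it, and phosphatases reverse this. Pyruvate that does not enter mitochondria can be reduced to lactate by lactate dehydrogenase, a tetramer of A and B chains, and lactate crosses the plasma membrane through monocarboxylate transporters. The heart is known as a lactate consumer in which the B chain prevails, and Pdk4 is a known target of the fatty acid sensing PPAR receptors.

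Levels are given in FPKM, fragments per kilobase of transcript scaled to the mapped fragments of a library, so levels of different genes can be set side by side. Each genotype has 1 library and no replicates, so neither a test nor an error can be given for any value and the overlap of the groups cannot be judged. Read counts were not analysed here and the absolute depth is unknown. Low values move in steps of single reads, and the steps of csMed1-/- were 0.719 times those of control. This equals a relative depth of 1.39 for csMed1-/- over control if each library was scaled to its own mapped fragments. Whether it was is not given in the sources used here. Med1 itself, over all its exons, had 3.38 FPKM in the control and 0.412 FPKM in the csMed1-/- library, a ratio of 0.122.

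The heart identity of the RNA was read from marker genes. Beside their counts, 18.0% of all genes kept by the filter on low values described below were lower past 2-fold. A further 13.6% were higher. Of 10 cardiomyocyte markers, 8 were above 0 in both libraries, and their summed level was 57721 FPKM in control against 28200.1 FPKM in csMed1-/- heart, a ratio of 0.489 that lay between 0.422 and 0.581 with any 1 of the 8 left out. They did not move alike, with 3 (37.5%) lower past 2-fold (Tnni3, Myl2 and Tnnt2) and 5 within 2-fold. Tnnc1 (ratio 1.25) and Actn2 (1.47) had a higher value. Actc1 was listed at 0 in the control and at 9189 FPKM in the csMed1-/- library, and a row that joins Myh6 with Myh7 was listed at 0 and at 647 FPKM. A listed 0 can be a failed estimate, and since these genes are abundant in heart muscle the zeros are not read as absent expression. With Actc1 included the ratio of the summed markers was 0.648. The summed level of 8 fibroblast markers was 503 FPKM in control against 1193 FPKM in csMed1-/- heart (ratio 2.37, between 1.85 and 2.82 with any 1 left out). Past 2-fold 4 were higher (Col1a1, Col1a2, Postn and Tcf21) and 1 lower (Lum, ratio 0.463). Col3a1 (1.58), Dcn (0.847) and Pdgfra (0.985) lay within 2-fold. The 7 smooth muscle and pericyte markers summed to 679 and 1118 FPKM (1.65), of which 622 FPKM in csMed1-/- heart came from Cnn1, and without Cnn1 the sums were 675 and 496 FPKM (0.735), with Acta2 at a ratio of 0.541. The ratio of the sum was 0.877 for 8 endothelial markers, which did not move alike. Past 2-fold 3 (37.5%) were lower (Kdr, Tek and Emcn) and 1 was higher (Vwf, ratio 3.61), with a median log2 ratio of -0.58. The 1 higher gene is 12.5% of the list, near the share of all genes. For 8 macrophage markers the ratio of the sum was 1.15, with 0 lower and 1 higher past 2-fold. That is 12.5% higher, near the 13.6% of all genes. Rows of haemoglobin genes were higher in csMed1-/- heart, by a ratio of 1.36 for Hba-a1 with Hba-a2 and of 1.81 for the joined beta globin row. Of 3 other red blood cell markers, which summed to 36.5 and 85.7 FPKM, 2 passed the filter on low values and both were higher past 2-fold. The skeletal muscle list, 7 genes, was carried by Ckm, also abundant in heart (5262 and 1837 FPKM), and Acta1 (207 and 2033 FPKM), and its sum had a ratio of 0.707, or of 9.35 without Ckm. The others were below 6 FPKM in both libraries, and all 6 adipocyte markers were at 0 in control and at 0.0101 FPKM or less in csMed1-/- heart. The part of these differences in the values that follow was not tested, and in RNA of whole hearts fewer cells of a type and less RNA per cell cannot be told apart.

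Of the 10 genes, 7 were lower in csMed1-/- heart by more than 2-fold, 3 lay within 2-fold and 0 were higher past 2-fold. The 7 were the 4 genes of the complex among the 10 (Pdha1, Pdhb, Dlat and Dld), the kinase genes Pdk1 and Pdk2, and Ldhb. Slc16a1 and Pdk4 had lower values within 2-fold, and Ldha was the single gene of the 10 with a higher value. The filter on low values asked for a value above 0 in each library and a level of at least 1 FPKM in one or the other, and left 10489 genes. Of these 18.0% were lower and 13.6% were higher past 2-fold, 31.5% in all. The 7 lower genes make up 70.0% of the 10. On the log2 scale the ratio of csMed1-/- to control had a median of -1.40 over the 10 genes and -0.07 over all genes kept. With at least 10 FPKM in either library, 6 of 9 genes were lower past 2-fold, where 16.3% of all 5426 such genes were lower and 15.1% higher, 31.4% in all.

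**Figure D1:**
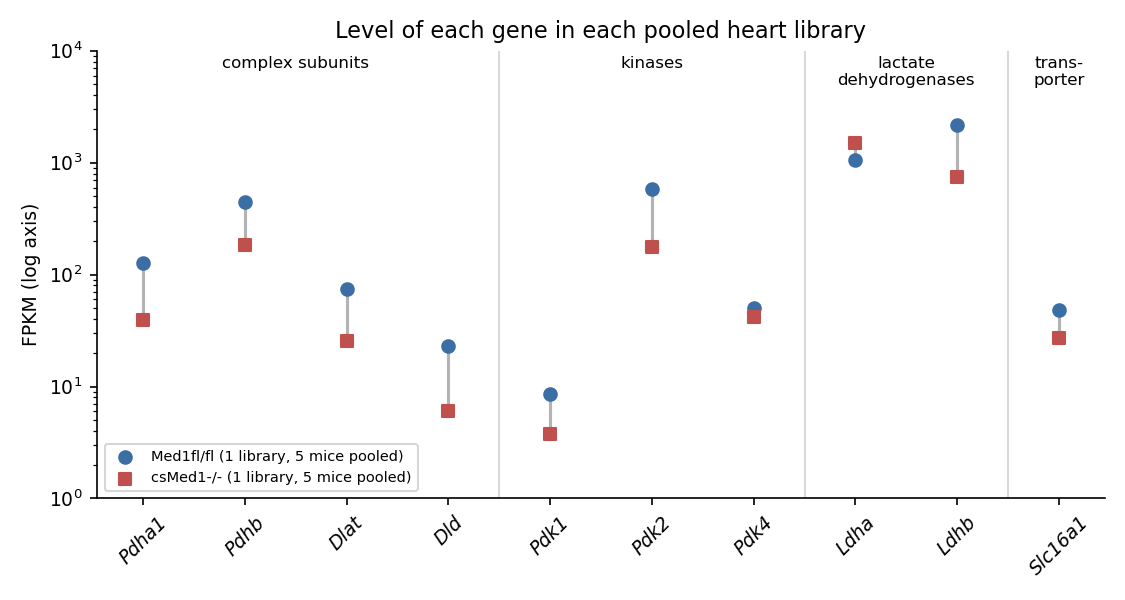
FPKM of each of the 10 genes (log axis) in the Med1fl/fl library (circles) and the csMed1-/- library (squares), each made from 5 pooled hearts, grouped by role, with a line joining both values and no error bars since there are no replicates. The square lies below the circle for 9 genes and above it for Ldha, which went from 1067 to 1509.6 FPKM, while the values of Pdk4 nearly meet.

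**Figure D2:**
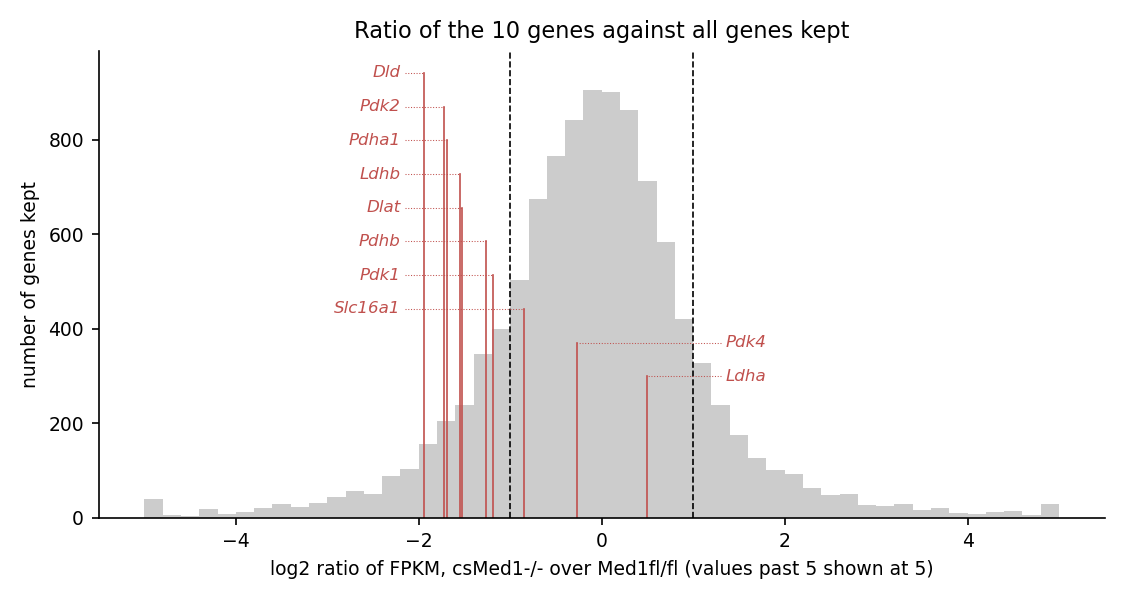
Histogram of the log2 ratio of csMed1-/- to Med1fl/fl FPKM over the 10489 genes kept, with the 10 genes as vertical lines, 2-fold as dashed lines and values past 5 drawn at 5. The heights of the vertical lines serve only to separate the labels, and 7 lines lie left of the lower dashed line, from Dld at -1.94 to Pdk1 at -1.19.

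The 4 genes of the complex among the 10 were lower together. Pdha1 encodes the α subunit of E1, the component that the kinases phosphorylate, and had 127 FPKM in control against 39.3 FPKM in csMed1-/- heart (log2 ratio -1.69). Pdhb, which encodes the β subunit of E1, had 447 and 185 FPKM (-1.27), a difference that came inside 2-fold (-0.92) when ratios were centred within bins of GC content. Dlat encodes E2, the acetyltransferase core, and had 73.7 and 25.6 FPKM (-1.53). Dld encodes E3, the dihydrolipoamide dehydrogenase that is shared with other 2-oxoacid dehydrogenases, and had 23.1 and 5.99 FPKM. This was the lowest ratio of the 10 genes (log2 ratio -1.94, 3.85-fold lower). With ratios centred within bins of GC content, Dld was at -1.77 and Pdk2 was lower, at -1.95. The median log2 ratio of these 4 subunits was -1.61. Of all genes kept, 5.52% had a lower ratio than Dld and 12.8% a lower ratio than Pdhb. The summed FPKM of these 4 genes and Pdhx, the E3 binding protein, was 706 in control against 275 in csMed1-/- heart (ratio 0.390).

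The order of the subunit levels was the same in both libraries, with Pdhb highest, then Pdha1, Dlat, Pdhx and Dld. Without replicates it is not known which neighbours in this order differ beyond their spread. Relative to Pdha1 in the same library, which does not depend on how the libraries were scaled, Pdhb was at 3.52 in control and 4.72 in csMed1-/- heart. Dlat was at 0.581 and 0.651 of the Pdha1 level, and Dld at 0.182 and 0.152. Pdhx had 35.7 and 18.8 FPKM (log2 ratio -0.92) and so lay within 2-fold. Its level relative to Dlat, to which it is structurally related, was 0.484 in control and 0.736 in csMed1-/- heart. The make-up of the complex thus moved by few percentage points, Pdha1 from 18.0% to 14.3% of the summed level and Pdhb from 63.3% to 67.4%.

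In the GENCODE M21 annotation of GRCm38, the assembly also named mm10 to which the reads were aligned, Pdha1 lies on chromosome X (160122209 to 160138413, minus strand, 11 exons in the reference transcript). Pdhb lies on chromosome 14 (8165996 to 8173025, minus strand, 10 exons), Dlat on chromosome 9 (50634633 to 50659780, minus strand, 14 exons) and Dld on chromosome 12 (31331277 to 31351453, minus strand, 14 exons). The reads were 50 nt long, and in Pdhb 30.3% of the stretches of 50 bases in the reference transcript also occur in an annotated processed pseudogene, Gm6123, so reads could be split between them. For Pdha1 this share was 0.464%, and for Dlat and Dld it was 0.

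The kinase genes were not lower to the same degree. Pdk2, the most abundant of them, had 583 FPKM in control against 176 FPKM in csMed1-/- heart (log2 ratio -1.73, 3.31-fold lower). Pdk1, a kinase also known as a hypoxia-inducible gene, had 8.60 and 3.76 FPKM (-1.19, or -0.85 with the same centring by GC content). Pdk4, the kinase known to be raised by fasting and fatty acids, had 50.2 and 41.5 FPKM, a log2 ratio of -0.28 that became 0.0047 when ratios were centred within bins of GC content. Of all genes kept, 7.38% had a lower ratio than Pdk2, and 41.6% a lower ratio than Pdk4. Pdk3, outside the 10 genes, had 2.03 and 2.56 FPKM (0.33).

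The summed level of the 4 kinase genes was 644 FPKM in control against 224 FPKM in csMed1-/- heart, a ratio of 0.348. Set against Pdha1, the gene of their substrate, the summed level was 5.08 in control and 5.70 in csMed1-/- heart, so kinase and substrate transcripts were lower by similar factors. Pdk2 alone was at 4.60 and 4.48 times the Pdha1 level. Pdk4 was at 0.396 times the Pdha1 level in control and 1.06 times in csMed1-/- heart. Within the family Pdk2 made up 90.5% of the summed level in control and 78.7% in csMed1-/- heart, and Pdk4 7.80% and 18.5%. Pdk1 made up 1.34% and 1.68%, and Pdk3 0.316% and 1.14%.

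The opposing enzymes had lower values as well. Pdp2, a phosphatase that reactivates the complex, had 3.67 FPKM in control against 0.305 FPKM in csMed1-/- heart (log2 ratio -3.59). Pdp1, the other catalytic phosphatase subunit, had 1.51 and 0.685 FPKM (-1.14), and Pdpr, the phosphatase regulatory subunit, 6.03 and 2.23 FPKM (-1.44). Relative to the summed kinase genes, both catalytic phosphatase genes together were at 0.00805 in control and 0.00442 in csMed1-/- heart. Of the list of other parts of the complex, 5 of 6 genes were kept, 3 were lower and 0 higher past 2-fold, with a median log2 ratio of -1.14. The 3 make up 60.0% of those kept, beside 18.0% of all genes that were lower and 13.6% that were higher. With 1 FPKM added to each value 2 were lower, as Pdp1 came inside 2-fold, and the median was -0.89. Pdha2, a testis form of E1α, was listed at 0 in both libraries. The 3 phosphatase genes are at low levels, and none of them passes a filter of 10 FPKM.

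Pdk1 lies on chromosome 2 (71873224 to 71903858, plus strand), Pdk2 on chromosome 11 (95026258 to 95041354, minus strand) and Pdk4 on chromosome 6 (5483351 to 5496309, minus strand), each with 11 exons in the reference transcript. No stretch of 50 bases in the Pdk1 or Pdk2 reference transcript occurs in the annotated transcripts of another gene, and in Pdk4 1.43% do.

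**Figure D3:**
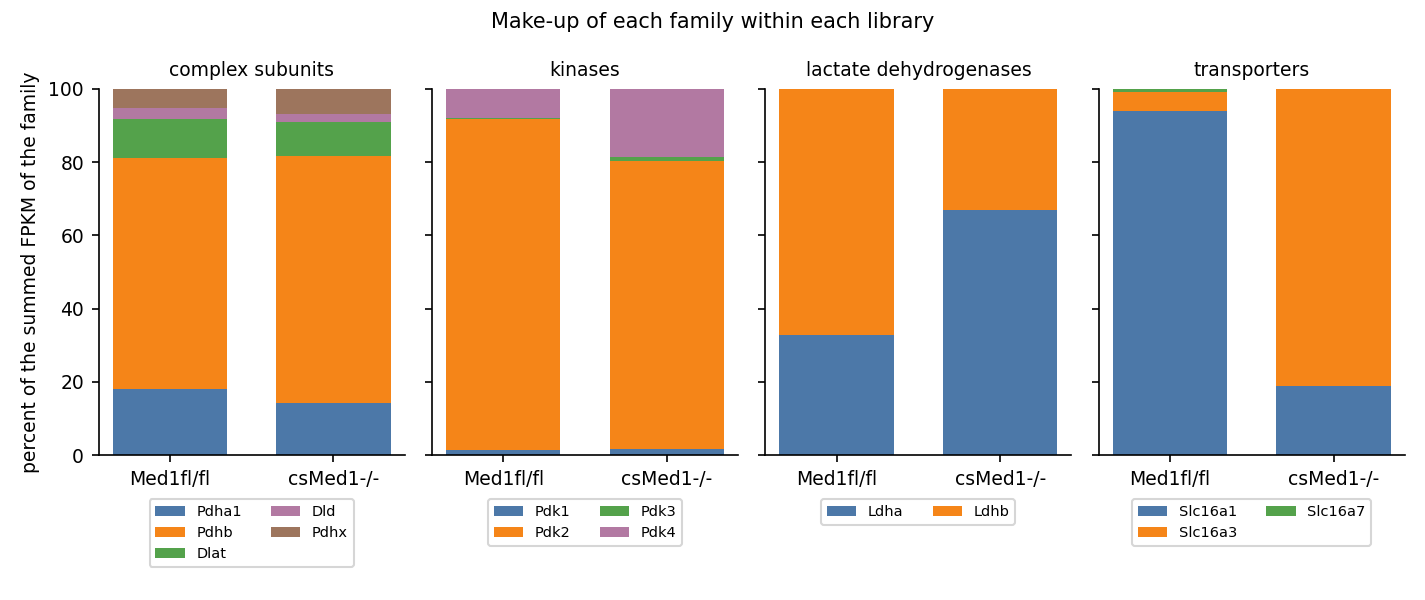
Percent of the summed FPKM of each family that each gene makes up within the Med1fl/fl and the csMed1-/- library, for the complex subunits, the kinases, the lactate dehydrogenases and the monocarboxylate transporters. Pdha1 to Pdhx keep their order, Pdk4 goes from 7.80% to 18.5% of the kinases, Ldha from 32.9% to 67.0% of the lactate dehydrogenases and Slc16a3 from 5.06% to 81.0% of the transporters.

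The lactate dehydrogenase genes moved apart. Ldhb, which encodes the heart type B chain, had 2175 FPKM in control against 743 FPKM in csMed1-/- heart (log2 ratio -1.55, 2.93-fold lower). Ldha, which encodes the muscle type A chain, had 1067 and 1509.6 FPKM (0.50, within 2-fold). By level Ldhb was number 60 of all symbols in the control and number 185 in the csMed1-/- library, whereas Ldha was number 132 and number 78. The Ldha to Ldhb ratio was 0.491 in control and 2.03 in csMed1-/- heart, a 4.14-fold difference that does not depend on the scaling between the libraries. Both together summed to 3241.5 and 2252 FPKM, a ratio of 0.695. Set against Pdha1, Ldha was at 8.42 in control and at 38.4 in csMed1-/- heart. Ldhd, the gene of mitochondrial D-lactate dehydrogenase, had 25.1 and 26.1 FPKM (0.06), and Ldhc, the testis form, was listed at 0 in both libraries.

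Ldha lies on chromosome 7 (46841475 to 46855627, plus strand, 8 exons in the reference transcript) and Ldhb on chromosome 6 (142490249 to 142507957, minus strand, 8 exons). Of the stretches of 50 bases in the Ldha reference transcript, 19.1% also occur in transcripts of 14 other annotated genes, with the processed pseudogene Gm5452 sharing the most, and for Ldhb 27.0% occur in the processed pseudogene Gm5514. The levels of Ldha and Ldhb are uncertain to the extent that reads were split with these copies.

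The start regions of Ldha and Ldhb are shown because these genes of a single family had ratios on opposite sides of 1. They are the 250 bases before a start site in RefSeq (GRCm38.p6), at chr7:46845554-46845803 on the plus strand and chr6:142507958-142508207 on the minus strand. They are written 5′ to 3′ with each motif match in capitals. The Ldha region lies in an intron of annotated Ldha transcripts that start further upstream, and the Ldhb region lies outside the annotated gene.
Ldha: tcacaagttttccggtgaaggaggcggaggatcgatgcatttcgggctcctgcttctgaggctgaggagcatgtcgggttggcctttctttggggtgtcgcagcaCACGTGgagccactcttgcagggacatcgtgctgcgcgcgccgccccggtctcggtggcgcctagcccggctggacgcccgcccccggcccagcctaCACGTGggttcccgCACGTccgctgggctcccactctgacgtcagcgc
Ldhb: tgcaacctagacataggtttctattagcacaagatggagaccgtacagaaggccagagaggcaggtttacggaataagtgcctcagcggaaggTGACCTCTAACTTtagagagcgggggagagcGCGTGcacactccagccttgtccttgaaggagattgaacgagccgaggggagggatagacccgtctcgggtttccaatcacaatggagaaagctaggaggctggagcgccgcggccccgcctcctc
Motifs were searched on both strands. The core of the hypoxia response element was taken as ACGTG or GCGTG, the E-box as CACGTG, which holds ACGTG on each strand, the nuclear receptor element as AGGTCA and its extended form as AAGGTCA. The direct repeat bound by PPAR with RXR was taken as a pair of AGGTCA elements with 1 base between them and up to 2 mismatches. The Ldha region holds 2 CACGTG motifs, 145 to 140 and 48 to 43 bases before the start site, and a further ACGTG on the opposite strand, 34 to 30 bases before it. The Ldhb region holds no ACGTG, a single GCGTG 126 to 122 bases before the start site, and an AGGTCA on the opposite strand, 157 to 152 bases before it, that is part of a direct repeat with 2 mismatches. Among all 32851 start regions of this length, 16.6% hold ACGTG, 28.2% GCGTG, 6.02% CACGTG, 14.0% AGGTCA, 4.08% AAGGTCA and 3.24% the direct repeat. All 10 genes had a start region in RefSeq. Ldha, Pdk1 and Pdk2 each had 2. That nearest to the start of the GENCODE reference transcript was used, 35 bases away for Ldha. Of the 10, 4 hold ACGTG (Ldha, Pdhb, Pdk2 and Slc16a1), 6 hold GCGTG, 3 hold CACGTG (Ldha, Pdk2 and Slc16a1), 1 holds AGGTCA and the direct repeat (Ldhb), and 0 hold AAGGTCA. A match describes the letters only, and binding was not measured.

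Slc16a1 encodes MCT1, the monocarboxylate transporter through which heart muscle takes up lactate. It had 48.6 FPKM in control against 26.9 FPKM in csMed1-/- heart (log2 ratio -0.85, 1.81-fold lower) and so lay just inside 2-fold. Of all genes kept, 21.4% had a lower ratio. Slc16a3 encodes MCT4, the transporter known for lactate export from glycolytic muscle, and had 2.61 FPKM in control against 115 FPKM in csMed1-/- heart, a ratio of 43.9 (log2 ratio 5.46). Among the 3 transporter genes Slc16a1, Slc16a3 and Slc16a7, Slc16a1 made up 94.1% of the summed level in control and 19.0% in csMed1-/- heart. Slc16a3 made up 5.06% and 81.0%. The sum of the 3 genes was 51.6 FPKM in control against 142 FPKM in csMed1-/- heart. Slc16a7, the gene of MCT2, was below 1 FPKM in both libraries (0.434 and 0.0794). Bsg, whose product basigin carries MCT1 and MCT4 to the cell surface, had 2073 and 1737 FPKM (-0.26).

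Slc16a1 lies on chromosome 3 (104638668 to 104658462, plus strand, 5 exons), and no stretch of 50 bases in its reference transcript occurs in another gene. Slc16a3 lies on chromosome 11 (120948480 to 120960868, plus strand). Their start regions are shown as the pair of transporters that changed places in abundance, at chr3:104638414-104638663 and chr11:120948817-120949066, both on the plus strand, with motif matches in capitals.
Slc16a1: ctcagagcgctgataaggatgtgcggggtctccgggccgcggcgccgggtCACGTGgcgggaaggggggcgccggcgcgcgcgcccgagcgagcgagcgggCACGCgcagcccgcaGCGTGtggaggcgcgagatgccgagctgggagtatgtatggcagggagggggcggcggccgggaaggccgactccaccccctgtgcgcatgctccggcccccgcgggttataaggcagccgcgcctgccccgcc
Slc16a3: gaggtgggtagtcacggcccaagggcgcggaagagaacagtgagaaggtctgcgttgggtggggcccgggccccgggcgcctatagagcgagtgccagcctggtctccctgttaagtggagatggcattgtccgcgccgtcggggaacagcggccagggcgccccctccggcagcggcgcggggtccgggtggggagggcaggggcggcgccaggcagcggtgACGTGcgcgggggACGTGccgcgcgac
The Slc16a1 region holds a CACGTG 200 to 195 bases before the start site and 2 GCGTG motifs. The Slc16a3 region, which lies inside the annotated gene because some of its transcripts start further upstream, holds 2 ACGTG motifs, 27 to 23 and 14 to 10 bases before the start site, and no GCGTG.

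The other genes of lactate and monocarboxylate handling did not share a direction. Of 12 genes listed, 5 were kept, of which 1 was higher (Slc16a3) and 1 lower (Slc16a8, 2.42 to 0.248 FPKM, log2 ratio -3.29) past 2-fold. Each is 20.0% of those kept, near the 13.6% of all genes that were higher and the 18.0% that were lower. The median log2 ratio of the 5 was 0.06. Nptn, which encodes the basigin relative neuroplastin, had 38.3 FPKM in control against 62.1 FPKM in csMed1-/- heart (0.70).

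Genes that feed or drain pyruvate were in part lower. Of 10 genes listed, 9 were kept, 3 were lower and 0 higher past 2-fold, with a median log2 ratio of -0.86. The 3 make up 33.3% of those kept, beside 18.0% of all genes that were lower and 13.6% that were higher. The genes lower past 2-fold were Brp44 (now Mpc2), a subunit of the mitochondrial pyruvate carrier, with 364 FPKM in control against 101 FPKM in csMed1-/- heart (-1.86), and the alanine aminotransferases Gpt (40.8 and 5.34 FPKM, -2.93) and Gpt2 (16.8 and 1.43 FPKM, -3.55), which interconvert pyruvate and alanine. Brp44l (now Mpc1), the partner subunit of the carrier, had 645 and 348 FPKM (-0.89, 2 rows summed). Pkm2 (now Pkm), the gene of muscle pyruvate kinase, had a higher value within 2-fold, with 1112 and 1619 FPKM (0.54). Pcx, the gene of pyruvate carboxylase, had 11.5 and 10.6 FPKM (-0.12). The malic enzyme genes Me1 (33.4 and 23.0 FPKM, -0.54) and Me3 (101 and 55.6 FPKM, -0.86) lay within 2-fold.

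The genes of related complexes that share Dld, the other 2-oxoacid dehydrogenases and glycine cleavage, were in part lower. Of 12 genes listed, 9 were kept, and 5 were lower and 0 higher past 2-fold. The 5 make up 55.6% of those kept, beside 18.0% of all genes that were lower and 13.6% that were higher. The median log2 ratio of the list was -1.50. That median is the value of Dbt, a gene at low level, and with 1 FPKM added to each value 4 genes were lower and the median was -0.74. Ogdh and Dlst, the E1 and E2 of the 2-oxoglutarate dehydrogenase of the tricarboxylic acid cycle, had 795 and 273 FPKM (-1.54) and 364 and 124 FPKM (-1.55). These log2 ratios are close to that of Dlat. Ogdhl, a related E1, had 72.3 FPKM in control against 1.37 FPKM in csMed1-/- heart (-5.73). Of the branched-chain dehydrogenase, Bckdhb had 58.6 and 8.42 FPKM (-2.80) and Dbt 1.64 and 0.577 FPKM (-1.50), whereas Bckdha had 384 and 267 FPKM (-0.52). Gcsh, the lipoate-bearing protein of glycine cleavage, had 36.5 and 24.6 FPKM (-0.57). Bckdk, the kinase of the branched-chain complex, stood only on a row joined with its neighbour Myst1, with 89.4 and 87.7 FPKM.

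The supply of lipoate and thiamine, cofactors of the 2-oxoacid dehydrogenase complexes, was represented by 11 genes. Of these 10 were matched (Iba57 was not) and 8 were kept. Past 2-fold 2 were lower, Lipt2 (9.87 and 2.87 FPKM, -1.78) and Lipt1 (5.45 and 2.05 FPKM, -1.41), which transfer lipoyl groups, and 0 were higher, with a median log2 ratio of -0.77. The 2 lower genes make up 25.0% of those kept, near the 18.0% of all genes that were lower. Lias, the lipoic acid synthetase gene, had 13.0 and 6.61 FPKM (-0.98).

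Of 21 known transcriptional regulators of Pdk and Ldh genes, 18 were kept, 7 were lower and 2 higher past 2-fold, with a median log2 ratio of -0.55. These are 38.9% lower and 11.1% higher, beside 18.0% and 13.6% of all genes, so the share of higher regulators was not above that of all genes. The largest differences downwards were in Lpin1, a coactivator of PPARα in its nuclear form (43.3 and 5.04 FPKM, -3.10), Ppara (12.4 and 1.66 FPKM, -2.90) and Rxrg, a partner of PPAR receptors (71.7 and 14.0 FPKM, -2.36). Esrra, the gene of the estrogen-related receptor ERRα, had 127 and 61.4 FPKM (-1.05, or -0.98 and within 2-fold when ratios were centred on the median of all genes). The higher genes were Myc (1.38 and 3.91 FPKM, 1.51) and Hif1a, the oxygen-regulated factor known to act on Ldha and Pdk1 (1.44 and 2.91 FPKM, 1.02), both at low levels. Scaling both libraries to the same 75th percentile, or adding 1 FPKM to each value, left 1 of them past 2-fold. Next in the upward direction was Rxrb at 0.01.

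**Figure D4:**
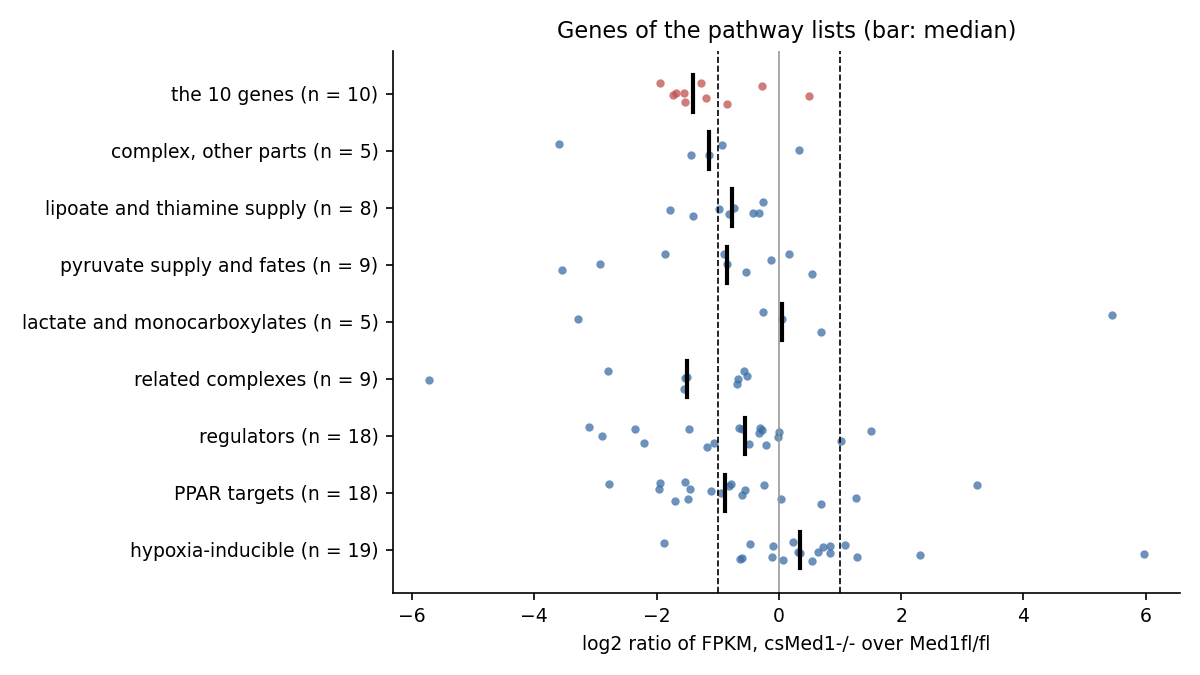
Log2 ratio of csMed1-/- to Med1fl/fl FPKM of every gene kept in the 8 pathway lists and of the 10 genes (top row), with the median as a bar and 2-fold as dashed lines. The medians lie at -1.40 for the 10 genes, -1.50 for the related complexes and 0.35 for hypoxia-inducible genes, and the point farthest right among the lactate genes is Slc16a3 at 5.46.

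**Figure D5:**
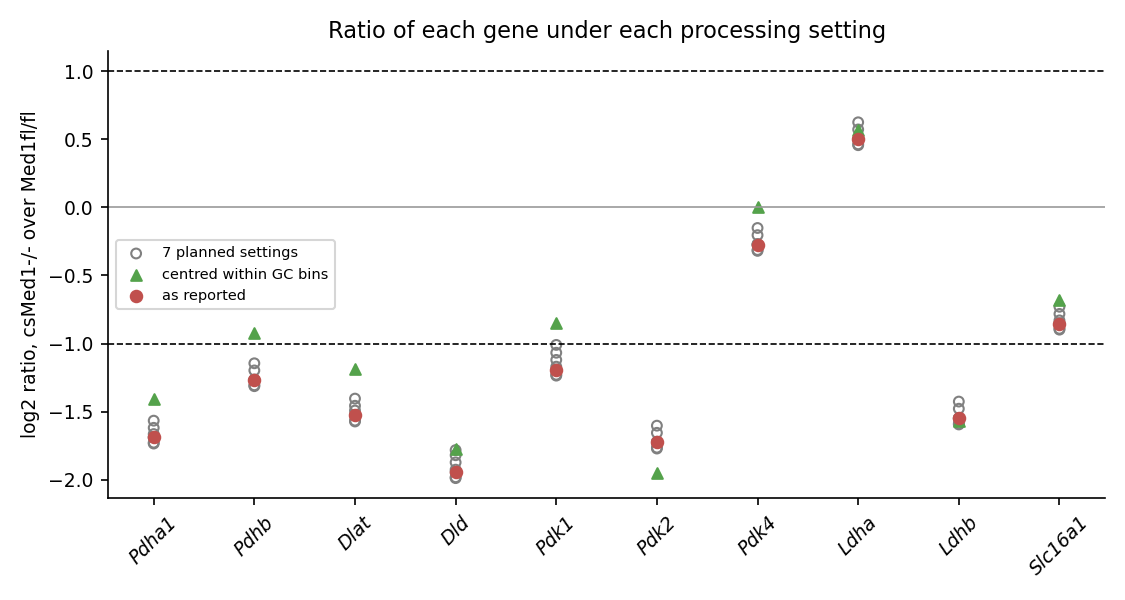
Log2 ratio of each of the 10 genes as reported (filled circles), under 7 planned processing settings (open circles) and with ratios centred within 10 bins of GC content (triangles), with 2-fold as dashed lines. The triangles of Pdhb (-0.92) and Pdk1 (-0.85) lie inside 2-fold, that of Pdk4 lies at 0.0047, and Ldha stays between 0.46 and 0.62.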

How the data were processed

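Heart RNA of 5 mice was pooled for each genotype, enriched for polyadenylated mRNA and sequenced as 1 directional library, single-end with 50 nt reads. Alignment to mm10 was done by the authors with TopHat (2.0.8b), and they computed the deposited FPKM values of annotated genes with Cufflinks and Cuffdiff (2.1.1). Which library scaling was used is not given in the sources used here. The values were used as deposited, and the 412 symbols that stand on several of the 23424 rows were summed. Genes with a value above 0 in each library, and a level of at least 1 FPKM in one or the other, were kept. FPKM in csMed1-/- heart was divided by that in control and called past 2-fold, and no test was made with 1 library per genotype. Absolute depth, and with it counting error, is unknown.

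The 10 genes, the lists and the alternatives were chosen with earlier results of these data known. Genes named beside the 10 are, in the lists of the complex, pyruvate, lactate and related complexes, those past 2-fold or at 10 FPKM or more, and the 3 largest differences in each direction of the other lists. Genes named outside this rule (Esrra, Epas1, Pdk3, Slc16a7, Pdha2, Ldhc, marker genes, rows of joined symbols) were chosen after their values were seen. Gene positions came from GENCODE M21 and start regions from RefSeq (GRCm38.p6). Stretches of 50 bases were compared with all annotated transcripts on the same strand. The calculation was tested on simulated data. Alternatives were 3 filters, 2 pseudocounts, 4 scalings, the highest row in place of the sum, and thresholds of 1.5-fold and 4-fold, with centring within GC bins added after seeing the data. Python 3.11.15, numpy 2.4.6, pandas 2.3.3 and matplotlib 3.10.9 were used.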

Additional observations from a re-analysis of the deposited data

How the results depend on the processing

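No paired analysis was possible because each genotype has 1 library. The count of 7 lower genes of the 10 was the same under 9 of the 13 alternatives. It was 6 among 9 genes with a filter of 10 FPKM, 8 at 1.5-fold, 5 with centring within GC bins, where Pdhb (-0.92) and Pdk1 (-0.85) came inside 2-fold, and 0 at 4-fold. Of 80 recomputed log2 ratios of the 10 genes, 78 stayed on their side of 2-fold and 1 changed sign, that of Pdk4 in GC bins (0.0047). GC content was known for 90.3% of the genes kept, and the cause of these moves was not tested. Scaling to equal FPKM totals moved the median of all genes by 0.12 on the log2 scale. Of 56 recomputed shares 53 moved by less than 1 percentage point, and a pseudocount of 1 gave 90.8% for Slc16a1, 6.61% for Slc16a3 and 2.62% for Slc16a7 in control. Of 64 recomputed list counts 58 stayed within 1.5 times, but a pseudocount of 1 took the median of the related complexes from -1.50 to -0.74. A filter of 10 FPKM, which keeps fewer genes, left 0 lower genes among other parts of the complex, lipoate and thiamine supply and other lactate genes, and 0 higher regulators. Regulators higher past 2-fold numbered 1 with a pseudocount of 1 and 1 with scaling to the 75th percentile.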

Other observations

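Known PPAR target genes, the group to which Pdk4 belongs, were measured on 19 of 20 symbols, and 18 were kept. Past 2-fold 8 were lower and 2 higher in csMed1-/- heart, with a median log2 ratio of -0.88 against -0.07 over all genes. These are 44.4% lower and 11.1% higher, beside 18.0% and 13.6% of all genes, so the share of higher targets was not above that of all genes. The largest differences downwards were in Acadm, the gene of medium-chain acyl-CoA dehydrogenase (251 FPKM in control against 36.4 FPKM in csMed1-/- heart, -2.78), Plin5, a lipid droplet protein of oxidative tissue (141 and 36.1 FPKM, -1.96), and Hadha, a subunit of the mitochondrial trifunctional protein (540 and 141 FPKM, -1.94). The largest upwards were in Angptl4, an inhibitor of lipoprotein lipase (10.7 and 101.5 FPKM, 3.24), Ucp2 (302 and 723 FPKM, 1.26) and, within 2-fold, Plin2 (37.8 and 60.7 FPKM, 0.68). Pdk4, at -0.28, lay between these.

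Hypoxia-inducible genes, the group to which Ldha, Pdk1 and Slc16a3 are also counted, were kept for all 19 listed. Past 2-fold 4 (21.1%) were higher and 1 (5.26%) lower, beside 13.6% and 18.0% of all genes. Within 2-fold lay 14, and the median log2 ratio was 0.35. The largest differences upwards were in Car9, a carbonic anhydrase (0.0949 and 5.96 FPKM over 4 rows, 5.97), Adm, which encodes adrenomedullin (4.25 and 21.2 FPKM, 2.32), and the glucose transporter gene Slc2a1 (13.5 and 33.0 FPKM, 1.29). The control value of Car9 is far below 1 FPKM. The largest downwards were in Egln1, an oxygen-sensing prolyl hydroxylase (139 and 37.9 FPKM, -1.87), and, within 2-fold, Pfkfb4 (1.73 and 1.12 FPKM, -0.63) and Egln3 (60.4 and 40.0 FPKM, -0.60).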
